A study of Homo sapiens with 3 samples.

Results

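Ovarian clear cell carcinoma is recognised in pathology and in expression studies by a small group of gene products, and 8 of these marker genes are described here in TOV21G, a human cell line derived from an ovarian clear cell carcinoma that carries mutated ARID1A. The 8 genes were taken by symbol from a table of 57736 gene rows, and the read-through row FXYD6-FXYD2 was left out. They are NAPSA, CRYAB, TFPI2, SPP1, FXYD2, ANXA4, GPX3 and PAX8. RNA was sequenced from 3 libraries, 2 of HDAC2 knockdown cells and 1 of wild-type (WT) cells. The knockdown cells were transduced with lentivirus carrying a short hairpin RNA against HDAC2, a class I histone deacetylase, with a different hairpin, shRNA 1 or shRNA 2, in each library. All 3 libraries share the ARID1A-mutated TOV21G background, and no label states that a control virus was given to the WT cells. The labels list the 2 hairpin stems without saying which of them is shRNA 1. No label describes more than 1 culture per hairpin. The p-values below thus rest on how far the hairpin libraries differ from each other. Most of that spread is borrowed from all genes tested (18.9 prior degrees of freedom) and little comes from the gene itself (1 residual degree of freedom). The premise is that WT, with its single library, would vary to the same degree.

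Clear cell carcinoma differs from the more common high-grade serous ovarian carcinoma in its frequent link to endometriosis and its glycogen-rich cells. Several of the markers are shared with kidney tubule epithelium, where PAX8 is also active. NAPSA encodes napsin A, an aspartic protease used as an immunostain for this tumour, and PAX8 encodes a transcription factor of the Müllerian, renal and thyroid lineages. SPP1 encodes the secreted glycoprotein osteopontin, TFPI2 a secreted Kunitz-type protease inhibitor, and GPX3 the extracellular glutathione peroxidase. CRYAB encodes αB-crystallin, a small heat shock protein, FXYD2 the gamma subunit of the sodium pump, and ANXA4 a calcium-dependent phospholipid-binding protein.

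The libraries held 11398791 counts (shRNA 1), 11225492 counts (shRNA 2) and 10138479 counts (WT). HDAC2 itself had 383 and 583 counts in the shRNA 1 and shRNA 2 libraries and 1051 in WT, or 31.7% and 48.9% of the WT level, so the labels and the targeted gene went together. Of the epithelial genes looked at, the keratin gene KRT18 had 4935, 5434 and 4731 counts and KRT8 620, 728 and 642 counts (shRNA 1, shRNA 2, WT). EPCAM had 86, 122 and 69 counts in the same order, whereas KRT7, KRT19, CDH1 and CLDN4 had at most 20 counts in any library. Markers of fibroblasts summed to 24.3 and 39.2 CPM (a count relative to its scaled library total) in the knockdown libraries and 16.0 CPM in WT, mostly from COL1A1 and COL1A2, with COL3A1 and LUM at 0 in every library. COL1A2 had 220 and 335 counts in the knockdown libraries and 87 in WT, and passed the test described below (adjusted p = 0.00235, edgeR; adjusted p = 0.0667 with the GC trend removed), and its part in the marker changes was not tested. Leukocyte markers, led by LYZ with 16 and 6 counts in the knockdown libraries and 25 in WT, summed to at most 3.01 CPM, and the 4 endothelial markers found to at most 0.872 CPM in any library, with CDH5 at 9 and 4 counts in the knockdown libraries and 1 in WT.

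As markers, 7 of the 8 genes were measured well in this line and 1 was not. NAPSA (ENSG00000131400; chromosome 19, 50358477 to 50365830, minus strand, GRCh38) had 4 and 1 counts in the knockdown libraries and 1 in WT, which corresponds to 0.349 and 0.0884 CPM, against 0.100 CPM in WT. The exact Poisson 95% intervals of these levels, 0.0951 to 0.894 CPM, 0.00224 to 0.493 CPM and 0.00254 to 0.559 CPM, overlap throughout and cover counting error only. NAPSA therefore did not pass the filter on low counts, and its low RNA level goes against its use as a marker of these TOV21G libraries. A difference between knockdown and WT was not detectable at this depth. NAPSB, a pseudogene, shares 2.57% of the 75-base sequences of NAPSA transcripts.

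**Figure D1:**
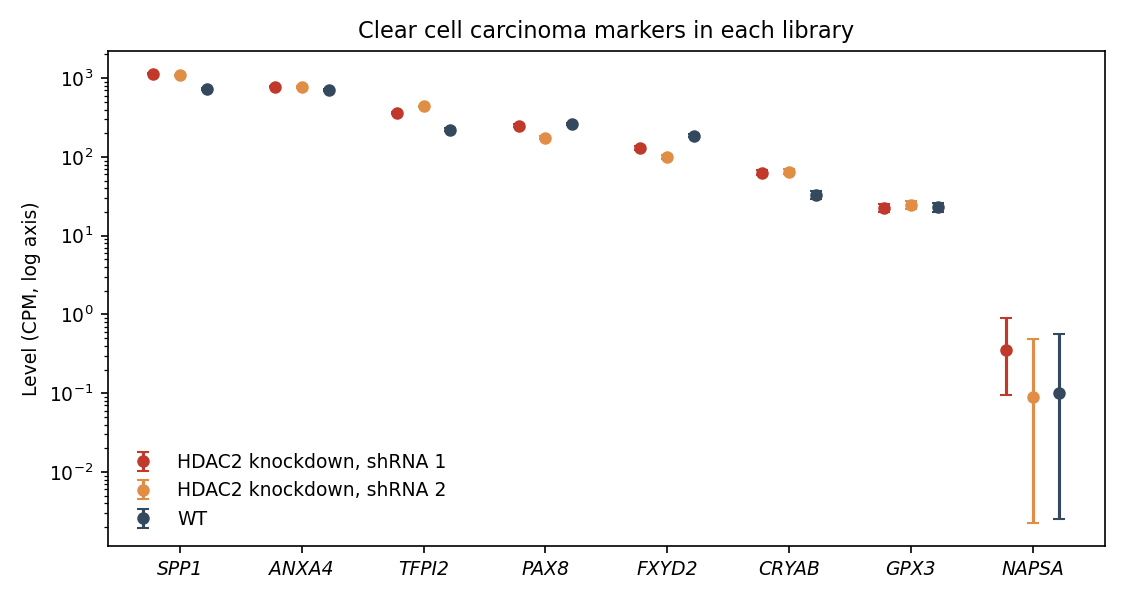
Level of each marker in each library, in CPM of libraries scaled by TMM on a log axis, with exact Poisson 95% intervals that cover counting error only. SPP1 lies at 1136 and 1093 CPM in the knockdown libraries and NAPSA below 1 CPM in every library, and the markers with both knockdown points above the WT point by a visible step are SPP1, TFPI2 and CRYAB.

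Per kilobase of the longest annotated transcript, SPP1 had the highest RNA level of the 8 markers, with 670 ± 18.3 CPM per kilobase in knockdown cells (SD, n = 2) and 437 in WT. This level exceeded that of 99.4% of the genes tested in each knockdown library and of 98.9% in WT. ANXA4 followed with 175 ± 1.55 CPM per kilobase in knockdown cells and 159 in WT, and TFPI2 with 163 ± 21.99 in knockdown cells and 90.5 in WT (SD, n = 2 for knockdown). These 2 neighbours changed places between the hairpins, so in knockdown cells their order does not exceed the spread.

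The next 3 levels per kilobase were close together in knockdown cells. CRYAB had 57.0 ± 1.43, PAX8 51.1 ± 13.0 and FXYD2 39.9 ± 7.34 CPM per kilobase in knockdown cells (SD, n = 2), against 29.2, 63.4 and 65.0 in WT. CRYAB stood below both of the others in WT and above both in the knockdown mean, but with shRNA 1 it lay below PAX8. GPX3 was lower, at 13.4 ± 0.694 CPM per kilobase in knockdown cells and 13.2 in WT, and NAPSA last. The order depends on which transcript length is used. With the median length of the annotated transcripts, CRYAB moved to place 6 in knockdown cells and FXYD2 to place 4, and in WT ANXA4 stood above SPP1, at 949.3 and 881.5 CPM per kilobase.

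Since SPP1 was the highest of the markers per length and its RNA rose with knockdown, the stretch before its start is shown beside that of PAX8, which did not pass the test. Both run 5′ to 3′ on the strand of the gene and come from RefSeq promoters (GRCh38.p14), which matched 6 of the 8 markers by symbol. Each was cut to end just before the first exon base annotated in GENCODE, and so stops short of the RefSeq start. SPP1 is chr4:87975464-87975649 on the plus strand and PAX8 chr2:113278951-113279171 on the minus strand. Capitals mark matches to the motifs searched, which the SPP1 stretch lacks.
PAX8: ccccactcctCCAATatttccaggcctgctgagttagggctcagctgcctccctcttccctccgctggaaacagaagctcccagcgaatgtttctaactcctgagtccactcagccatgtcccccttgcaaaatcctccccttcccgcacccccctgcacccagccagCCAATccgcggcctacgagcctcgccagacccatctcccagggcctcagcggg
SPP1: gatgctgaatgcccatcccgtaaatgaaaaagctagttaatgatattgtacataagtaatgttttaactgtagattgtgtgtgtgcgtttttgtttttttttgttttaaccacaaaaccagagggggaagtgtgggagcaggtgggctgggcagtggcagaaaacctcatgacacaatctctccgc
The motifs searched, each on both strands, were the TATA box with the letters TATAAA, the box read as CCAAT, the GC box with the letters GGGCGG and the AP-1 site with TGANTCA. An inverted repeat of the heat shock element unit, GAANNTTC, was searched too. In the 186 bases of the SPP1 stretch 0 matches to these letters were found. In the same positions 7.31% of 35116 promoters hold TATAAA, 25% CCAAT, 32.2% GGGCGG, 4.85% TGANTCA and 4.3% GAANNTTC. Those positions stop short of the RefSeq start, so these values cannot tell whether a TATA box lies nearer to it. The PAX8 stretch held 2 CCAAT boxes, and 29.9% of promoters hold at least 1 in the same 221 positions. No 2 matches overlapped. The SPP1 stretch was 41.9% and the PAX8 stretch 62.4% G and C. Of the other tested markers that did not pass, the GPX3 stretch had 0 matches in 97 bases and the ANXA4 stretch 2 GC boxes in 90. A match describes letters, and whether any factor binds there, or any match goes with a change, was not tested.

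In the comparison of knockdown with WT, which asks what HDAC2 depletion does in ARID1A-mutated cells, 3 of the 7 markers tested rose, 1 fell and 3 did not pass. The rising genes were CRYAB, TFPI2 and SPP1, and the falling gene was FXYD2. With the trend of changes with GC content removed, as described below, 1 of these 4 calls held, that of CRYAB, and those of TFPI2, SPP1 and FXYD2 were lost (adjusted p = 0.114, 0.163 and 0.119, edgeR). The test was edgeR's quasi-likelihood test over all 14524 genes with enough counts, with Benjamini-Hochberg adjustment and a threshold of 0.05. By it 7.72% of all genes passed, 3.96% upwards and 3.76% downwards. The 7 markers are well counted, each with a mean of at least 255 counts, and 10.6% of the genes averaging 200 counts or more passed. Both knockdown libraries stood above WT for 4 of the 7 markers and below it for 2, against 39.9% and 39.3% of all genes tested. The median log2 change was 0.14 over the 7 markers and 0.01 over all genes tested. In bulk RNA of this kind, fewer cells with a transcript and less of it per cell cannot be told apart.

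CRYAB (ENSG00000109846; chromosome 11, 111908565 to 111923722, minus strand, GRCh38) is a chaperone that binds unfolding proteins under stress. It had 718 and 734 counts in the knockdown libraries and 326 in WT. Its levels were 62.6 CPM (58.1 to 67.4) with shRNA 1 and 64.9 CPM (60.3 to 69.8) with shRNA 2, against 32.7 CPM (29.25 to 36.5) in WT, with exact Poisson 95% intervals of counting error. The knockdown libraries were nearly equal, and both lay above WT. The change was 1.95-fold, a log2 change of 0.96 ± 0.18 (SE; adjusted p = 0.00305, edgeR). In all, 559 genes had a higher log2 change. CRYAB overlaps HSPB2 and C11orf52 on the other strand, of which C11orf52 had 43 and 71 counts in the knockdown libraries and 50 in WT, and 10.0% of its 75-base sequences occur in HSPB2 or in the read-through HSPB2-C11orf52. HSPB2 had 4 and 2 counts in the knockdown libraries and 0 in WT, and the read-through had 0 in all 3.

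TFPI2 (ENSG00000105825; chromosome 7, 93885396 to 93890991, minus strand, GRCh38) inhibits serine proteases such as plasmin in the extracellular matrix. It had 4142 and 4946 counts in the knockdown libraries and 2206 in WT, or 361 CPM (350.4 to 372.5) and 437 CPM (425.3 to 449.8), against 221 CPM (212.2 to 230.7) in WT. Both knockdown libraries lay above WT, and shRNA 2 lay higher than shRNA 1, at 121% of its level. The change was 1.81-fold, a log2 change of 0.85 ± 0.18 (SE; adjusted p = 0.00576, edgeR).

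SPP1 (ENSG00000118785; chromosome 4, 87975650 to 87983426, plus strand, GRCh38) encodes osteopontin, which binds integrins and the hyaluronan receptor CD44. It had 13017 and 12356 counts in the knockdown libraries and 7249 in WT, or 1136 CPM (1116 to 1155) and 1093 CPM (1074 to 1112), against 727 CPM (710.6 to 744.2) in WT. The 2 knockdown libraries were close to each other, at 156% and 150.3% of WT. The change was 1.53-fold, a log2 change of 0.62 ± 0.15 (SE; adjusted p = 0.0176, edgeR).

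FXYD2 (ENSG00000137731; chromosome 11, 117800844 to 117828698, minus strand, GRCh38) encodes a small membrane protein that tunes the sodium pump in kidney tubules. It had 1483 and 1126 counts in the knockdown libraries and 1860 in WT, or 129 CPM (122.9 to 136.1) and 99.6 CPM (93.8 to 105.6), against 187 CPM (178.2 to 195.3) in WT. Both knockdown libraries lay below WT, and shRNA 2 the lower, at 77.0% of the level with shRNA 1. The change was 0.614-fold, a log2 change of −0.70 ± 0.18 (SE; adjusted p = 0.0212, edgeR). The call was lost with DESeq2's Wald test at nearly the same change, −0.71 (adjusted p = 0.0599). FXYD2 overlaps DSCAML1 on the same strand, which had 78 and 62 counts in the knockdown libraries and 88 in WT. FXYD2 shares 10.4% of its 75-base sequences with the read-through FXYD6-FXYD2 and with an antisense gene that had 0 counts. The read-through itself had 30 and 24 counts in the knockdown libraries and 108 in WT. With the read-through counts added to FXYD2, the log2 change was −0.76 (adjusted p = 0.0139, edgeR).

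The other 3 tested markers did not pass. Their 95% intervals assume that WT varies like the hairpin libraries, and the GC trend was not removed in them. ANXA4 (ENSG00000196975; chromosome 2, 69644425 to 69827100, plus strand, GRCh38) had 8934 and 8704 counts in the knockdown libraries and 7007 in WT, or 779 and 770 CPM, against 703 CPM in WT. Its log2 change was 0.14 ± 0.15 (SE; adjusted p = 0.63, edgeR), with a 95% interval of −0.18 to 0.46, which is 0.883-fold to 1.38-fold. GPX3 (ENSG00000211445; chromosome 5, 151020438 to 151028993, plus strand, GRCh38) had 259 and 275 counts and 231 in WT, or 22.6 and 24.3 CPM, against 23.2 CPM in WT, so the WT value lay between the 2 knockdown values. The log2 change of GPX3 was 0.02 ± 0.21 (SE; adjusted p = 0.971, edgeR), with a 95% interval of −0.41 to 0.45.

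PAX8 (ENSG00000125618; chromosome 2, 113215997 to 113278950, minus strand, GRCh38) had 2871 and 1969 counts in the knockdown libraries and 2625 in WT, or 250.5 and 174 CPM, against 263 CPM in WT. With shRNA 1 the level was 95.1% and with shRNA 2 66.1% of WT, and the hairpins stood further apart than shRNA 1 stood from WT. The log2 change over both was −0.31 ± 0.19 (SE; adjusted p = 0.355, edgeR), with a 95% interval of −0.72 to 0.09, and single libraries allow no test of the gap between the hairpins.

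**Figure D2:**
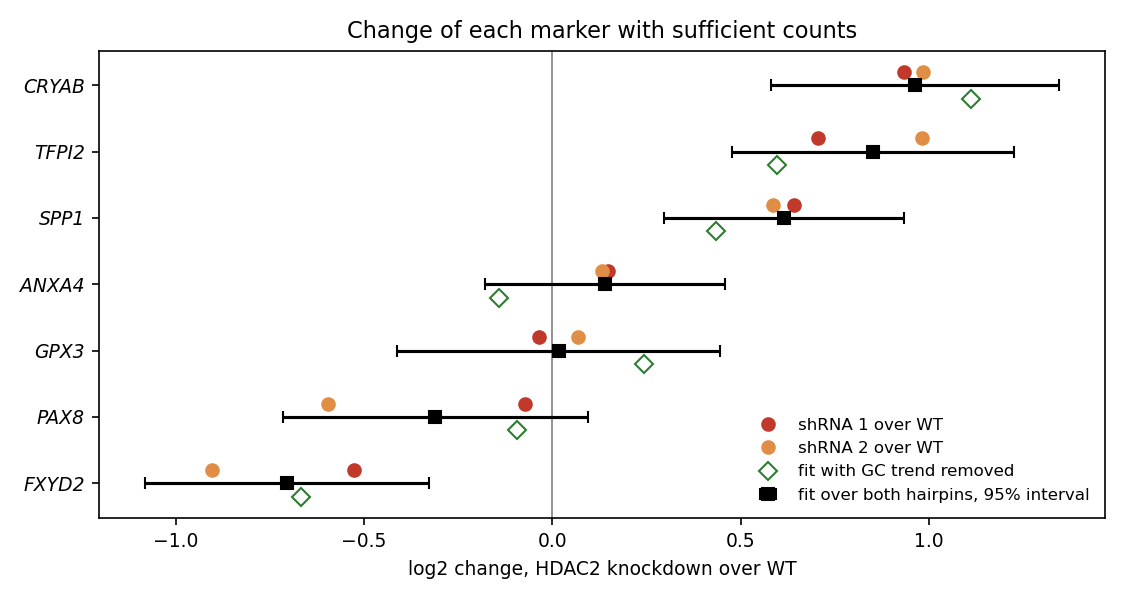
log2 change of the 7 tested markers in HDAC2 knockdown over WT. Squares with bars are the fit over both hairpins with its 95% interval, circles the single hairpins over WT, which have no test, and open diamonds the fit with the GC trend removed. The intervals of CRYAB, TFPI2 and SPP1 lie above 0 and that of FXYD2 below it, the hairpins are widest apart for PAX8, and the diamond of ANXA4 lies on the other side of 0.

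The log2 changes of all genes were related to the GC content of their transcripts, and the markers lie at different points of that relation. Among genes with a longest transcript of at most 40% G and C, the median log2 change was 0.33 and 12.8% rose. Between 40% and 45% it was 0.18, with 5.15% rising, and between 50% and 55% it was −0.11, with 1.22% rising. TFPI2 transcripts have 39.8% G and C, in the lowest range, where 12.8% of genes rose. SPP1 transcripts have 41.8%, where 5.15% rose, against 3.96% of all genes tested. CRYAB has 53.6%, where few genes rose, and FXYD2 49.2%. With the trend removed, CRYAB changed by 1.11 on the log2 scale and passed (adjusted p = 0.026, edgeR), and it was the marker that kept its call. TFPI2 then had a log2 change of 0.60 (adjusted p = 0.114), SPP1 0.43 (adjusted p = 0.163) and FXYD2 −0.67 (adjusted p = 0.119), each by edgeR. That fit passed 1.47% of all genes and 0.558% upwards, against 7.72% and 3.96% without the correction, and 37.9% of its calls were upward, against 51.3%. Its prior degrees of freedom were 7.16, against 18.9, and FXYD2 lost its call at nearly the same size of change. With scaling by library size alone, the 3 rising markers still passed, where 5.98% of all genes rose. The log2 change of ANXA4 turned to −0.14 and that of GPX3 became 0.24 with the trend removed, and neither passed.

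**Figure D3:**
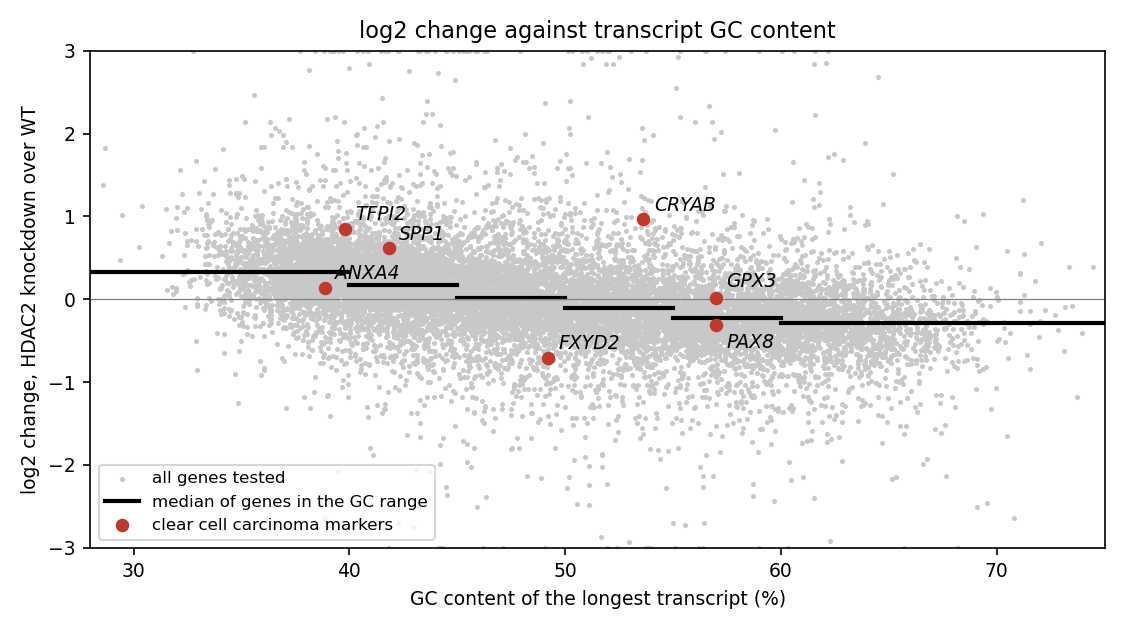
log2 change in HDAC2 knockdown over WT against the GC content of the longest transcript, for all tested genes (grey, drawn at the edge beyond a log2 change of 3), the medians of genes in ranges of GC content (black lines) and the 7 tested markers (red). The medians fall from 0.33 below 40% to −0.29 above 60%, TFPI2 and SPP1 sit where the median is above 0, and CRYAB and FXYD2 stand well away from the line at their GC content.

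Other genes reported for clear cell carcinoma were counted as a list beside the 8 markers. Of 17 such genes, 13 were tested, 2 rose, 0 fell and 11 did not pass. Among all genes tested 3.96% rose and 3.76% fell. The list's median log2 change was 0.33, against 0.01 over all genes tested, with or without the GC trend. CD44, a receptor of hyaluronan and osteopontin, had 485 and 409 CPM in the knockdown libraries and 243 CPM in WT, a log2 change of 0.88 ± 0.18 (SE; adjusted p = 0.00419, edgeR). HIF1A, the hypoxia-inducible factor subunit, had 2416 and 2650.0 CPM in the knockdown libraries and 1687 CPM in WT, a log2 change of 0.59 ± 0.14 (SE; adjusted p = 0.0143, edgeR). HIF1A transcripts have 36.4% and CD44 transcripts 45.3% G and C. With the GC trend removed neither passed, at 0.22 for HIF1A (adjusted p = 0.391) and 0.81 for CD44 (adjusted p = 0.0617), and the list's median was 0.17. UGT1A1 and LEFTY1 were at 0 counts in all libraries and DPP4 had at most 2. The cytokine gene IL6, named after its values were seen, had 67.7 CPM with shRNA 1 and 34.9 CPM with shRNA 2, against 36.5 CPM in WT, and did not pass (adjusted p = 0.271, edgeR).

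Markers of other ovarian tumour types were mostly at or near 0 counts. Of 11 serous markers, ESR1, PGR, KLK5 and KLK6 had 0 counts in every library, and 3 were tested, of which 0 passed edgeR's test, 1 had an unadjusted p below 0.05 and 0 passed DESeq2's or the likelihood ratio test. Of all genes tested, 23.5% had an unadjusted p below 0.05. WT1, the nuclear marker of serous carcinoma, had 7 and 11 counts in the knockdown libraries and 14 in WT. CDKN2A, which encodes the cell cycle inhibitor p16, had 116 and 108 counts and 144 in WT. Of 10 mucinous markers, 6 had 0 counts in every library and 1 was tested, with 0 passing edgeR's test, an unadjusted p below 0.05, DESeq2's test or the likelihood ratio test. Of 12 genes of the Müllerian epithelial lineage, 8 were tested and 0 passed by edgeR's test, with 1 at an unadjusted p below 0.05 and 0 by DESeq2's or the likelihood ratio test. PAX2, a close relative of PAX8, had 79.7 and 65.1 CPM in the knockdown libraries and 86.6 CPM in WT. SOX17 had 1 and 0 counts in the knockdown libraries and 0 in WT, and EMX2 had 0 counts in all 3. WFDC2, the gene of the serum marker HE4, had 0 counts in both knockdown libraries and 4 in WT.

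**Figure D4:**
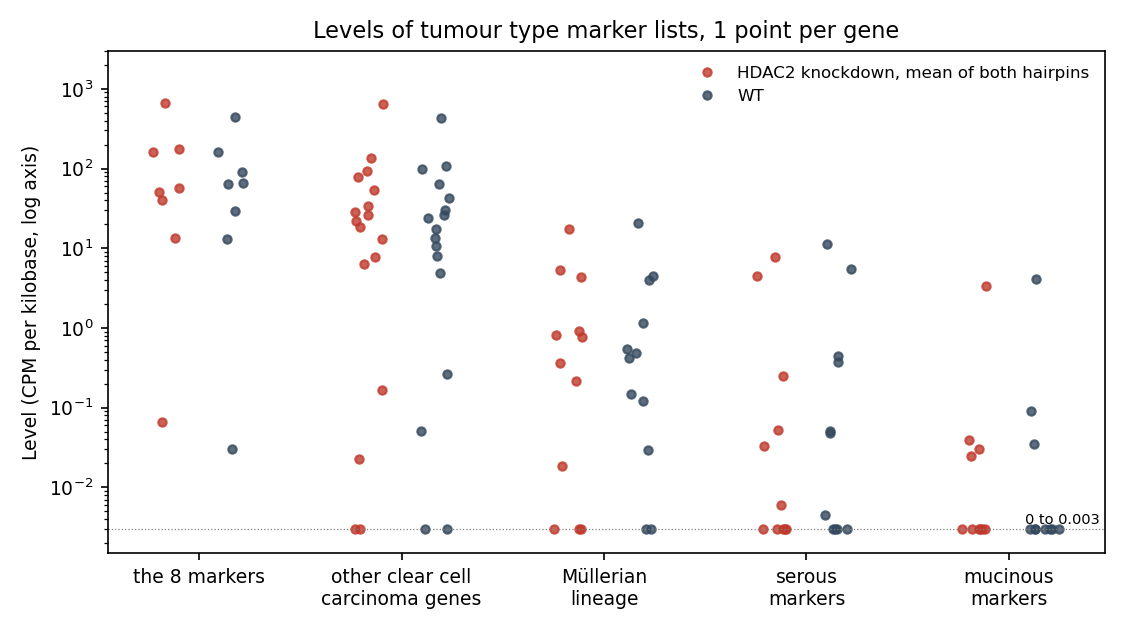
Levels of the 8 markers and of 4 lists of tumour type genes, in CPM per kilobase of the longest transcript on a log axis, 1 point per gene with a known length, for the mean of both knockdown libraries and for WT. Levels from 0 to 0.003 are drawn on the dotted line. Of the 8 markers, 7 lie above 10 CPM per kilobase in both groups, and most serous and mucinous genes lie below 1.

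Kidney tubule genes were counted because several markers are shared with that epithelium. Of 14 genes of tubule identity and cyst formation, 9 were tested, 0 rose and 1 fell, against 3.96% and 3.76% of all genes tested. The list's median log2 change was −0.21, or 0.07 with the GC trend removed, against 0.01 over all genes in each fit. The falling gene was GLIS2, a zinc finger factor of kidney maintenance, with 16.9 and 15.1 CPM in the knockdown libraries and 27.8 CPM in WT (log2 change −0.79 ± 0.21, SE; adjusted p = 0.0229, edgeR), which shares 23.3% of its 75-base sequences with another gene and is uncertain. TFCP2L1, a factor of the collecting duct, had 58.8 and 57.6 CPM in the knockdown libraries and 68.9 CPM in WT and did not pass (adjusted p = 0.411, edgeR). GLIS2 did not pass with the GC trend removed (adjusted p = 0.23), nor by DESeq2's Wald test, which passed 0 genes of the list.

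Among the other genes listed by symbol as small heat shock proteins, 3 of 9 were tested, among them HSPB11, whose current name is IFT25. HSPB1, the gene of HSP27, fell where CRYAB rose. It had 179 and 216 CPM in the knockdown libraries and 318 CPM in WT, a log2 change of −0.69 ± 0.17 (SE; adjusted p = 0.0179, edgeR). HSPB1 transcripts have 64.3% G and C, and with the GC trend removed its log2 change was −0.37 (adjusted p = 0.357). Of 16 genes of Kunitz inhibitors and of the start of coagulation and plasminogen activation, 12 were tested, 1 rose and 1 fell. Among all genes tested 3.96% rose and 3.76% fell. The list's median log2 change was 0.14, against 0.01 over all genes tested. SERPINE2, a protease inhibitor of the serpin family, had 90.1 and 62.9 CPM in the knockdown libraries and 47.4 CPM in WT (log2 change 0.69 ± 0.21, SE; adjusted p = 0.0429, edgeR), which did not pass once the GC trend was removed (adjusted p = 0.356). F2RL1, a protease-activated receptor, had 47.7 and 52.9 CPM in the knockdown libraries and 83.9 CPM in WT (log2 change −0.74 ± 0.17, SE; adjusted p = 0.0107, edgeR). It passed with the GC trend removed as well (adjusted p = 0.0421), but DESeq2's Wald test passed 0 genes of this list, F2RL1 and SERPINE2 included. APP, which carries a Kunitz domain in some isoforms, had 1344 and 1072 CPM in the knockdown libraries and 919.8 CPM in WT and did not pass (adjusted p = 0.145, edgeR). TFPI, the paralog of TFPI2, named after its values were seen, had 290.3 and 341 CPM in the knockdown libraries and 239 CPM in WT, also with shRNA 2 the higher, and did not pass (adjusted p = 0.17, edgeR).

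Osteopontin binds integrins that recognise its RGD sequence. For this list and the next, the shares of all genes tested were 3.96% rising and 3.76% falling. Of 13 integrin genes and relatives of SPP1, 6 were tested and 1 rose, the common beta subunit gene ITGB1, with 1619 and 1305 CPM in the knockdown libraries and 812 CPM in WT (log2 change 0.85 ± 0.16, SE; adjusted p = 0.00314, edgeR). The call of ITGB1 was lost with the GC trend removed, at 0.61 (adjusted p = 0.143). The genes of the SPP1 family beside it, IBSP, DMP1, DSPP and MEPE, had 0 counts in every library. In the FXYD and sodium pump list, 5 of 13 genes were tested and FXYD5, which encodes dysadherin, fell, with 82.8 and 78.6 CPM in the knockdown libraries and 130.3 CPM in WT (log2 change −0.69 ± 0.17, SE; adjusted p = 0.0145, edgeR; adjusted p = 0.218 with the GC trend removed). DESeq2's Wald test passed 0 genes of that list. ATP1B1, the beta 1 subunit gene of the pump, had 503.5 CPM with shRNA 1 and 270.3 CPM with shRNA 2, against 393.5 CPM in WT, so the hairpins lay on either side of WT. That gene did not pass (adjusted p = 0.965, edgeR). FXYD6, the neighbour of FXYD2 with which it forms the read-through, had 143.5 and 122 CPM in the knockdown libraries and 158.5 CPM in WT (adjusted p = 0.403, edgeR).

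Of the other annexin genes 8 were tested, of the other glutathione peroxidase and selenoprotein synthesis genes 10, and of the other PAX genes 3, and 0 passed by edgeR's test in each. At an unadjusted p below 0.05 they numbered 1, 4 and 0, where 23.5% of all genes tested had such a p. DESeq2's and the likelihood ratio test passed 0 in each. ANXA2, which with its partner S100A10 binds plasminogen at the cell surface, had 2016 and 1987 CPM in the knockdown libraries and 1811 CPM in WT, and GPX1, the cytosolic glutathione peroxidase, had 359 and 322 CPM in the knockdown libraries and 329 CPM in WT. Of the other aspartic protease genes, 3 were tested and BACE2 fell, with 42.8 and 43.3 CPM in the knockdown libraries and 65.4 CPM in WT (log2 change −0.60 ± 0.17, SE; adjusted p = 0.0352, edgeR; adjusted p = 0.0869 with the GC trend removed). By edgeR's test 3.76% of all genes fell, and by DESeq2's Wald test 0 of these protease genes passed. CTSD, the lysosomal cathepsin D, had 180 and 154 CPM in the knockdown libraries and 166 CPM in WT and may share reads, as 41.7% of its 75-base sequences occur in other genes. The pepsinogen genes PGA3, PGA4 and PGA5 had 0 counts in every library.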

How the data were processed

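RNA came from a Trizol extraction with DNase treatment, libraries from a ScriptSeq kit and reads were 75 bp, per the labels' protocols. The authors deposited estimated counts, whole numbers for each Ensembl gene, and rounding changed 0 of them. RSEM 1.2.3, hg19 and edgeR are named, with no role, per the submitters' processing notes. The sources used here do not give strand use in counting, so reads of antisense partners may be mixed.

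Groups follow the labelled genotype. Counts were tested with edgeR 4.0.16 (R 4.3.3, TMM scaling, filterByExpr, quasi-likelihood test, Benjamini-Hochberg over 14524 genes). SE came from the estimate and its F statistic. CPM are TMM-scaled, and 3 counts equal 0.262, 0.265 and 0.301 CPM (shRNA 1, shRNA 2, WT). Single-hairpin log2 changes used a prior count of 2. Positions, lengths and GC content come from GENCODE 29 (GRCh38), with GC content known for 97.9% of tested genes. The GC trend was fitted per library as a spline and removed through offsets. Fits and GC correction were tested on simulated data.

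The markers and gene lists were chosen with earlier results of these data known. List genes were named where they passed (up to 2 in each direction) or had the highest mean CPM of their list. Others, among them genes at or near 0 counts, WT1, KRT8, IL6, TFPI and FXYD6, were chosen after their values were seen. Of the lists' symbols, ANXA8 and PECAM1 were not matched. Genes most like a called marker are the 3 at the smallest distance in single-hairpin log2 changes, with a mean count of at least 50. A few list genes that this rule names are not reported here, though they stay in their lists' counts.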

Additional observations from a re-analysis of the deposited data

How the results depend on the processing

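Under the other scalings (DESeq2 size factors, library size alone, upper quartile), a mean count of at least 50, the likelihood ratio test and the added read-through counts, 4 markers passed as before. With no filter on low counts 0 markers and 0 genes passed by edgeR's test, although 2486 genes had an unadjusted p below 0.05, and the 4 markers had log2 changes of 0.96 (CRYAB), 0.85 (TFPI2), 0.62 (SPP1) and −0.70 (FXYD2), each with an adjusted p of 0.468 by edgeR. That fit had 1.92 prior degrees of freedom. DESeq2's Wald test passed 306 genes and 3 markers. With the GC trend removed, 214 genes, 1 marker and 1 of the 10 called list genes passed, and the log2 change of ANXA4 turned from 0.14 to −0.14. Scaling by library size alone moved the median of all genes to 0.04.

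With either hairpin library left out, log2 changes were 0.93 to 0.98 for CRYAB, 0.71 to 0.98 for TFPI2, 0.59 to 0.64 for SPP1, −0.90 to −0.53 for FXYD2, 0.13 to 0.15 for ANXA4, −0.04 to 0.07 for GPX3 and −0.60 to −0.07 for PAX8, as values without a test. No paired analysis was possible because the WT group has 1 library. Of 48 single-hairpin values under another prior count or scaling, 2 moved by more than the spread between hairpins, both of ANXA4.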

Other observations

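For each marker that passed the test, the 3 genes with the most similar pair of single-hairpin log2 changes were looked up among 10781 well counted genes, as a description over 3 libraries. With so few libraries many genes lie close to any pattern, so closeness says nothing of shared control. Nearest to CRYAB were DYNC2LI1, a light intermediate chain of the dynein of cilia, with 20.4 and 21.1 CPM in the knockdown libraries and 10.6 CPM in WT, NMRK1, a nicotinamide riboside kinase, and LRRK2, a kinase known from Parkinson's disease, with 40.3 and 40.9 CPM in the knockdown libraries and 21.0 CPM in WT. Their distances from CRYAB were 0.0077, 0.014 and 0.026 on the log2 scale. Nearest to TFPI2 were COX19, TTLL7 and KLHL28, at 0.014, 0.017 and 0.024, of which COX19 shares 20.4% of its 75-base sequences with ADAP1. Nearest to SPP1 were SPRED1, ZNF37A and MAP3K2, at 0.0045, 0.0089 and 0.0095, and SPRED1, an inhibitor of Ras signalling, had 44.5 and 42.8 CPM in the knockdown libraries and 28.5 CPM in WT. Nearest to FXYD2 were NFKBIB, GPR176 and NAT14, at 0.012, 0.018 and 0.024, and GPR176, an orphan receptor, had 28.8 and 22.02 CPM in the knockdown libraries and 41.8 CPM in WT.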
